A study of Homo sapiens with 4 samples.

Results

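The genes CPA3, IL5RA, SIGLEC8, PRG2 and KIT, known from eosinophils, basophils and mast cells, were followed in HL-60 cells during granulocytic differentiation. They were chosen by name, as the 5 rows of the deposited expression table that carry these symbols, of 1648 rows in all. HL-60 is an established human cell line labelled as acute promyelocytic leukemia. The ATRA group received 1 µM all-trans retinoic acid, a vitamin A derivative that drives these cells toward neutrophil-like cells, for 4 days, and the control group received the same volume of the solvent ethanol for 4 days. In both groups the medium and the additive were renewed at day 2. Poly(A) RNA was sequenced in 2 libraries per group, and the labels do not tell separate cultures from repeated libraries.

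Eosinophils, basophils and mast cells are granule-rich cells of the myeloid lineage that act in allergy and in defence against parasites. Their progenitors depend on GATA transcription factors, which bind short DNA motifs around the letters GATA. PRG2 encodes major basic protein, the main cationic toxin of the eosinophil granule, and CPA3 encodes the carboxypeptidase A stored in mast cell granules. IL5RA is the IL-5-binding chain of the receptor for the eosinophil growth factor IL-5, and SIGLEC8 is an inhibitory receptor for sialic acids on eosinophils and mast cells. KIT is the receptor tyrosine kinase for stem cell factor, carried by blood progenitors and retained by mast cells.

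Each value below is a normalised read count, that is, the reads of a gene in a library divided by the size factor of that library. The table gives means per group, and the reads of each library were recovered from them on the assumption that every digit 0 of the table had been written as 1, which gave 1 solution in each of the 1648 rows. The recovered libraries are called a and b in each group, and they cannot be tied to the replicate numbers of the labels. The reads in the listed genes came to between 3288055 and 5576516 per library, and the full depth is unknown. The table is a selection, since 1645 of the 1648 rows stood under the authors' limit of 0.01 on the adjusted p. Of the 5 genes 4 stood under that limit and 1, PRG2, stood above it. In a bulk sample, fewer cells of a type and less RNA per cell cannot be told apart.

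After ATRA, 4 of the 5 genes were lower and 1 was higher. Lower values were found in 38.2% of all listed rows and higher values in 61.8%. The higher share was 53.1% with library factors from the median of ratios over the listed rows, and 61.8% with factors from total listed reads. All 4 lower genes were at least 4-fold lower, that is 4 of the 5. Of the 1648 listed rows 630 were lower, and 184 (11.2% of the 1648) were at least 4-fold lower. The 5 genes were chosen with earlier results of these data known. PRG2 was 6.29-fold lower, SIGLEC8 7.09-fold, IL5RA 7.70-fold and CPA3 42.8-fold, whereas KIT was 9.64-fold higher. The median log2 fold change was -2.83 over the 5 genes and 1.23 over all listed rows. The libraries of the groups did not overlap for any of the 5, but 100.0% of the rows in this selected table share that feature. With 2 libraries against 2 the exact two-sided permutation test gave p = 0.333 for each gene, the smallest value it can give, so no single gene can pass a threshold of 0.05 here. No test across genes was fitted, since the rows were selected for a difference. The differences are therefore given with the spread of the libraries.

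**Figure D1:**
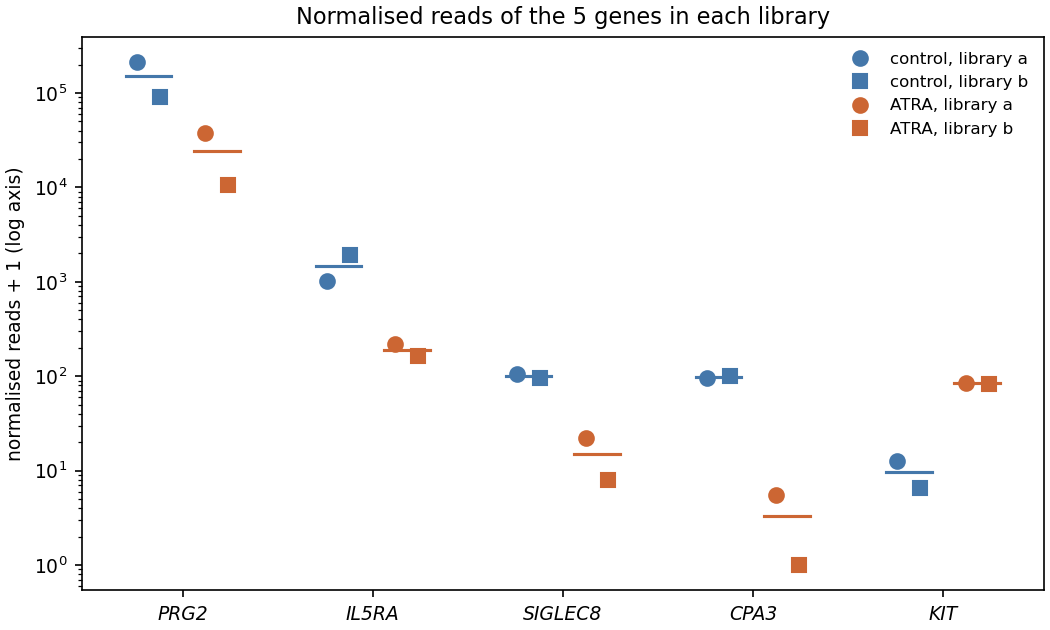
Normalised reads plus 1 on a log axis for the 5 genes in the 2 control libraries (blue) and the 2 ATRA libraries (orange), with circles for library a, squares for library b and lines for the group means. PRG2, IL5RA, SIGLEC8 and CPA3 lie lower in both ATRA libraries than in both control libraries, and KIT lies higher.

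PRG2 (chromosome 11, 57154253 to 57158123, minus strand, GRCh37) was by far the most abundant of the 5. It had 213827 and 91701 normalised reads in control libraries a and b, and 37985 and 10604 in ATRA libraries a and b. Both ATRA libraries were thus below both controls, and in each group library a was the higher of the pair. The mean was 152764 ± 86356 for the controls and 24295 ± 19361 for the ATRA libraries (SD, n = 2). The ratio of a control library to an ATRA library ranged from 2.41 to 20.2, depending on which libraries were set against each other.

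No other listed gene had as many reads as PRG2 in control library a, and 1 row exceeded it in control library b. It supplied 5.79% of the reads in listed genes in control library a (exact 95% binomial interval 5.76% to 5.81%) and 2.50% in b (2.48% to 2.51%). With ATRA its share was 0.749% in library a (0.742% to 0.756%) and 0.215% in b (0.211% to 0.219%). These intervals cover counting error only, and the libraries of a group lay far outside each other's interval. The denominator also differed: listed reads summed to 5576516 and 4940243 in ATRA libraries a and b, and to 3799430 and 3288055 in the controls. The share of PRG2 therefore fell by more than its normalised reads did. PRG2 still ranked at place 6 of 1648 in ATRA library a, and at place 100 in b.

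The spread of PRG2 between libraries was wide for a gene of this depth. Its ATRA libraries lay 3.58 times apart, against a median of 1.18 over all listed rows. Of the 896 rows with a mean of at least 1000 normalised reads, 0 had ATRA libraries farther apart. Its control libraries lay 2.33 times apart, with 9 of those 896 rows farther apart. On the log2 scale PRG2 stood at -2.65, but at -3.85 once ATRA library a was set aside, at -2.01 once ATRA library b was, and at -1.92 once control library a was. In the GENCODE annotation PRG2 overlaps a further protein-coding gene model on the same strand, from which its reads may not be separable.

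CPA3 (chromosome 3, 148583083 to 148614990, plus strand, GRCh37) was the gene with the largest fold of the 5. It had 94.3 and 101 normalised reads in control libraries a and b, and 4.55 and 0 in ATRA libraries a and b. The controls were 1.07 times apart, so that the distance between the groups was far larger than that between the controls. The ATRA value rested on 5 reads, all in library a. In library b there were 0 reads among 4940243 in listed genes, which allows a share of up to 6.07e-05% by a limit of 3 reads, or 7.47e-05% by the exact 95% binomial interval. The mean was 97.4 ± 4.41 in the controls and 2.27 ± 3.22 with ATRA (SD, n = 2). Over pooled reads the ratio was 40.9, with an exact 95% counting interval from 17.2 to 127. This and all later counting intervals of pooled ratios cover counting error only, and not the spread between libraries. On the log2 scale CPA3 stood at -5.42, and at -4.42 once ATRA library b was set aside. With ATRA library a set aside, a limit of 3 reads in library b gave -5.03, so CPA3 was then at least 32.6-fold lower. Of the 1648 rows, 16 had a lower log2 fold change than CPA3. A long noncoding RNA overlaps the locus on the opposite strand in GENCODE, and whether counting used strand is not given in the sources used here.

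IL5RA (chromosome 3, 3108008 to 3168297, minus strand, GRCh37) had 1008 and 1919 normalised reads in control libraries a and b. With ATRA it had 218 and 162. The values thus differed between the controls by a factor of 1.90, and the lowest control was still 4.62 times the highest ATRA library. The means were 1463 ± 644 and 190 ± 40.2 (SD, n = 2), a log2 fold change of -2.95 that stayed between -3.34 and -2.41 whichever library was set aside. Unlike PRG2, IL5RA was higher in control library b than in a, so these eosinophil genes did not order the controls alike. In GENCODE the long noncoding RNA CNTN4-AS1 on the same strand and the small nucleolar RNA SNORA43 on the opposite strand overlap IL5RA. Reads of CNTN4-AS1 may not be separable from those of IL5RA.

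SIGLEC8 (chromosome 19, 51954101 to 51961710, minus strand, GRCh37) had 104 and 93.9 normalised reads in control libraries a and b, and 20.9 and 6.98 in ATRA libraries a and b. The controls were close together, while the ATRA libraries lay 2.998 times apart on 23 and 7 reads. The means were 98.95 ± 7.20 and 13.95 ± 9.86 (SD, n = 2), with a ratio of pooled reads of 6.96 (exact 95% counting interval 4.72 to 10.6). The ratio of a control library to an ATRA library ran from 4.49 to 14.9, a wider range than that interval. On the log2 scale SIGLEC8 stood at -2.83, and at -3.83 once ATRA library a was set aside. Siglec genes lie in clusters of related sequence, and part of their reads may be shared between paralogs.

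KIT (chromosome 4, 55523434 to 55606949, plus strand, GRCh37) differed in the other direction. It had 11.7 and 5.59 normalised reads in control libraries a and b, and 84.6 and 81.8 in ATRA libraries a and b. The ATRA libraries were 1.03 times apart and both lay above both controls. The control values rested on 12 and 5 reads. The means were 8.63 ± 4.30 and 83.2 ± 2.00 (SD, n = 2), with a ratio of pooled reads of 9.42 (exact 95% counting interval 5.72 to 16.5). On the log2 scale KIT stood at 3.27, and at 3.90 once control library a was set aside.

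To compare levels between genes, the normalised reads were divided by the length of the canonical GENCODE transcript. PRG2 stood at 149425 and 64082 normalised reads per kb in control libraries a and b, and IL5RA, the next, at 176 and 334. CPA3 followed at 53.5 and 57.1, SIGLEC8 at 35.3 and 31.8, and KIT was the lowest at 2.27 and 1.09. No neighbours in this order overlapped in the controls. With ATRA the order per kb was PRG2 (26544 and 7410), IL5RA (38.0 and 28.2), KIT (16.4 and 15.9), SIGLEC8 (7.10 and 2.37) and CPA3 (2.58 and 0). There, SIGLEC8 in library b was below CPA3 in library a, so these neighbours were not separated by their libraries. KIT passed SIGLEC8 and CPA3 in this order, from the lowest place to the middle. In each library the per-kb level of PRG2 exceeded that of all 4 others.

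The promoters are shown as a description of their letters, with motifs of GATA factors marked. The GATA factor GATA2 was itself lower with ATRA, and whether it has a part in the values of the 5 genes was not tested. RefSeq sequences on GRCh38.p14 were found for 4 of the 5 genes, and the 250 bases before the RefSeq start site are printed for each. That start was not matched to the GENCODE gene ends given above on GRCh37. It may differ from them, so a window can lie inside the gene as placed above. Capitals mark the motif AGATAA on the given strand, and the motif TGATAA where it lies on the opposite strand.
CPA3 (chr3:148865046-148865295, plus strand): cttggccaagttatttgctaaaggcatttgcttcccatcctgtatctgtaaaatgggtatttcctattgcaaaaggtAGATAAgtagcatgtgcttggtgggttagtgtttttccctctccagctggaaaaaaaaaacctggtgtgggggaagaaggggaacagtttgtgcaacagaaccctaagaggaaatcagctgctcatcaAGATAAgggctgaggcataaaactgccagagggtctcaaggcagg
IL5RA (chr3:3110375-3110624, minus strand): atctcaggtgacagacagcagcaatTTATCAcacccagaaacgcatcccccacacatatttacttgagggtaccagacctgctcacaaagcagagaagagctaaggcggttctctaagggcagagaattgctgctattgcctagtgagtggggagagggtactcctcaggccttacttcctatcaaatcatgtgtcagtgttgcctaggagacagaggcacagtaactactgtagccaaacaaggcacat
SIGLEC8 (chr19:51458455-51458704, minus strand): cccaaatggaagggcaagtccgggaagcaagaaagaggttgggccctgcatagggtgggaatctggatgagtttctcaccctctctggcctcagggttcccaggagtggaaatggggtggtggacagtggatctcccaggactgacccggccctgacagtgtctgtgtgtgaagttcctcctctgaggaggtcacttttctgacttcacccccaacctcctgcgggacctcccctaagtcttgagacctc
KIT (chr4:54657707-54657956, plus strand): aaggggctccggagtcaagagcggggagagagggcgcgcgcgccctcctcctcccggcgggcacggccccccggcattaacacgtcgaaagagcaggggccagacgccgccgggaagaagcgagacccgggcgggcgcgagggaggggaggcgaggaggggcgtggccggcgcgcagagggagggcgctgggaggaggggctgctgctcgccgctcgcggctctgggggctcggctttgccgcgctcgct

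The motif GATA was searched on both strands, as were its longer forms: first AGATAA and then, in addition, TGATAA. The short motif is part of both longer ones. CPA3 held 2 copies of AGATAA, at 173 to 168 and at 45 to 40 bases before the start. IL5RA held 1 copy of TGATAA on the opposite strand, at 225 to 220 bases before the start. The windows of the lower gene SIGLEC8 and of the higher gene KIT held 0 copies of any of them. Over 35116 RefSeq promoters of the same length, 9.17% held AGATAA, 6.66% held TGATAA and 45.6% held GATA. The short motif had 3 matches in CPA3 and 2 in IL5RA, those inside the longer forms included. The composition of the windows also differed: GC content was 45.2% in CPA3, 48.8% in IL5RA, 57.6% in SIGLEC8 and 76.4% in KIT, against a median of 58.0%. The KIT window held 34 CG dinucleotides and that of CPA3 held 0. A motif match is a description of the letters and not a bound site.

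The 3 other genes of the eosinophil list that were in the table were higher, as were 61.8% of all listed rows. Of 27 symbols on the eosinophil granule and surface list 6 were in the table, the 3 lower ones being PRG2, IL5RA and SIGLEC8. The median log2 fold change of the 6 was 0.73, against 1.23 over all listed rows. It lies midway between PRG2 at -2.65 and ALOX5AP at 4.11, with no gene near it. CCR3, the eotaxin receptor that draws eosinophils into tissue, had 1.94 and 10.1 normalised reads in control libraries a and b and 927 and 1257 with ATRA. It was 182-fold higher on few control reads, and its log2 value of 7.51 went to 6.76 or 9.13 once control library a or b was set aside. P2RY14, a receptor for UDP-sugars, was 21.0-fold higher, or 4.40 on the log2 scale, and 5.24 once control library b was set aside. ALOX5AP, which serves 5-lipoxygenase in leukotriene synthesis in many myeloid cells, was 17.2-fold higher. The eosinophil granule genes EPX, RNASE2, RNASE3, PRG3 and CLC were not in the table, so no value is given for them.

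The mast cell and basophil list, of 35 symbols, had 8 members present, with 4 on the lower and 4 on the higher side. Over all listed rows 38.2% were lower and 61.8% higher. The median log2 fold change of the 8 was 0.30, against 1.23 over all listed rows. It lies midway between CD69 at -1.14 and SRGN at 1.75. Beside CPA3, the IL-33 receptor IL1RL1 had 172 and 221 normalised reads in control libraries a and b, and 53.7 and 5.98 with ATRA. It was 6.59-fold lower, and its log2 value of -2.72 went to -5.04 or -1.87 once ATRA library a or b was set aside. GCSAML was 9.36-fold lower, from 117 ± 18.9 to 12.5 ± 9.28 (SD, n = 2), and its log2 value of -3.23 went to -4.29 or -2.62 in the same way. CD69, an early activation antigen, was 2.21-fold lower. Beside KIT, the higher genes were FCER1G, the signalling chain of Fc receptors (13.4-fold), PTGS1, the constitutive cyclooxygenase (4.55-fold), and the granule proteoglycan SRGN (3.36-fold). For FCER1G the log2 value of 3.74 went to 3.002 or 5.32 once control library a or b was set aside. These 3 genes are also used by neutrophils, monocytes or platelets. The tryptases TPSAB1 and TPSB2, the IgE receptor chains FCER1A and MS4A2, and HDC, which makes histamine, were not in the table.

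**Figure D2:**
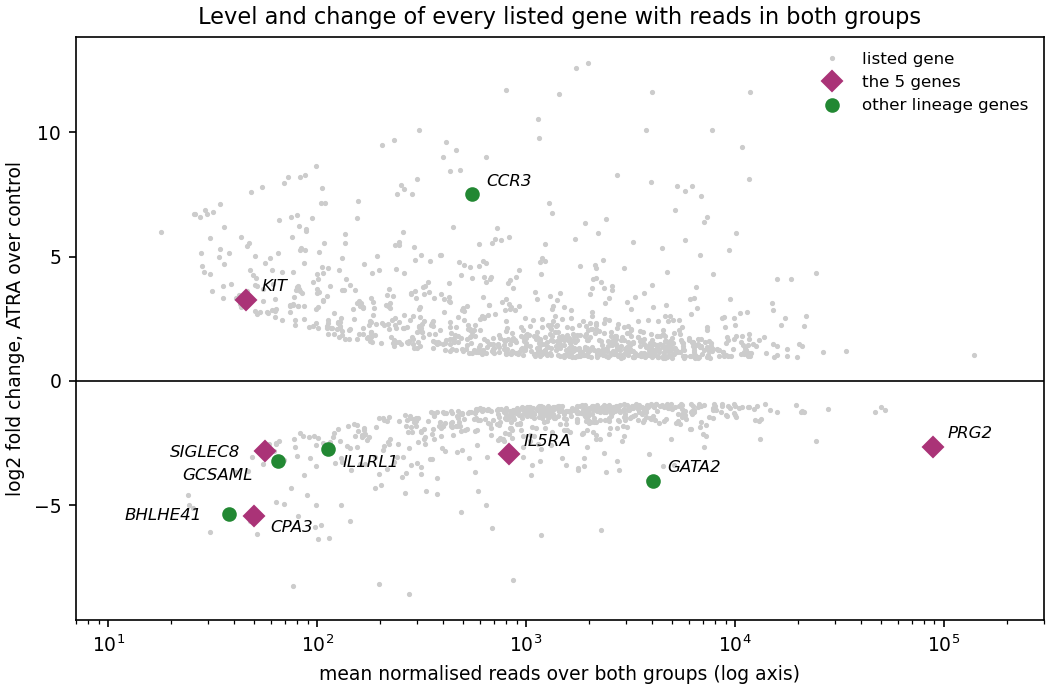
Mean normalised reads over both groups (log axis) against the log2 fold change of ATRA over control for the 1629 listed genes with reads in both groups (grey); the 5 genes are diamonds and other lineage genes are green circles. PRG2 lies far to the right with a log2 fold change of -2.65, CPA3 and BHLHE41 lie at the left below -5, and KIT and CCR3 lie above 0.

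Transcription factors of these lineages were listed in both directions: 13 of 34 symbols were in the table, 7 lower and 6 higher. Their median log2 fold change was -1.94, against 1.23 over all listed rows, of which 38.2% were lower. That median is the value of ZFPM1, the least lowered of the 7, and the next gene above it was NOTCH1 at 1.36. GATA2 had 8634 and 6594 normalised reads in control libraries a and b, and 624 and 314 with ATRA, 16.2-fold lower. ZFPM1, the GATA cofactor known as FOG1, was 3.83-fold lower, or -1.94 on the log2 scale, and -2.74 once ATRA library a was set aside. BHLHE41, which regulates eosinophil identity in mice, had 79.7 and 68.2 normalised reads in the controls, and 3.64 and 0 with ATRA. Its ratio over pooled reads was 39.1 on 4 ATRA reads, with an exact 95% counting interval from 14.9 to 145. Without ATRA library a its ATRA group was at 0, and without b its log2 value went from -5.34 to -4.34. IKZF2 was 4.59-fold lower, and MYB, needed by immature blood cells, was 5.09-fold lower. HES1, a repressor downstream of Notch, was 14.4-fold lower, or -3.85 on the log2 scale, and -4.58 once ATRA library a was set aside. ZBTB16 had 3 reads with ATRA, and the ratio over pooled reads was 278 (exact 95% counting interval 94.7 to 1351). Without ATRA library a its ATRA group was likewise at 0, and without b its log2 value went from -8.18 to -7.18. GATA1, CEBPA, CEBPE and MITF were not in the table.

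Among the higher factors ID2, an inhibitor of basic helix-loop-helix proteins, was 3.46-fold higher and BHLHE40 3.24-fold. BHLHE40 and BHLHE41 are related repressors, and they stood on opposite sides. RUNX3 was 3.12-fold higher, TRIB1 2.87-fold and NOTCH1 2.56-fold. CEBPB was 4.59-fold higher, or 2.20 on the log2 scale, and 1.42 once ATRA library a was set aside. It was, like PRG2, above the limit of the table.

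Genes of IL-5, IL-3 and GM-CSF receptor signalling were higher where listed, apart from IL5RA itself and, under another library scale, MCL1. Of 23 symbols 8 were in the table, 7 higher and 1 lower, and their median log2 fold change was 1.90, beside the 61.8% of all listed rows that were higher and their overall median of 1.23. JAK2, the kinase bound to the shared beta chain, was 4.99-fold higher, from 785 ± 206 to 3919 ± 145 normalised reads (SD, n = 2). SDCBP, the adaptor syntenin that binds the IL-5 receptor chain, was 2.40-fold higher and the kinase PIM1 10.6-fold. SOCS3, a feedback inhibitor of cytokine receptors, had 3 reads in the controls and 1957 with ATRA, a ratio over pooled reads of 597 (exact 95% counting interval 204 to 2897). Without control library a its control group was at 0, and without b its log2 value went from 9.31 to 8.31. The survival genes BCL2A1 and MCL1 were 22.1-fold and 2.20-fold higher, and SPRY2 2.79-fold. With control library b set aside, BCL2A1 went from 4.46 to 5.05 on the log2 scale. The direction of MCL1 depended on the library scale. Its log2 fold change was 1.13, or -0.02 with factors from the median of ratios over the listed rows, which leaves 6 of the 8 higher. With factors from total listed reads 7 of the 8 stayed higher. The beta chain CSF2RB and the partner chains CSF2RA and IL3RA were not in the table.

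The KIT signalling list, with the related receptor kinases, had 7 of 31 symbols listed, each of them higher, and their median log2 fold change was 2.33. Over all listed rows 61.8% were higher and the median was 1.23. CSF1R, the macrophage growth factor receptor of the same kinase family, was 33.2-fold higher, from 22.9 ± 10.3 to 760 ± 117 normalised reads (SD, n = 2). PIK3CG was 8.82-fold higher, the adaptor DOK2 5.02-fold, the Src-family kinase LYN 4.13-fold and the phosphatase PTPN6, known as SHP-1, 2.51-fold. JAK2 is on this list too. The ligand KITLG was not in the table. In the lists of IL-5 and KIT signalling together, IL5RA was the only gene of those listed that was lower under the deposited library scale.

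The Siglec family had 8 of 19 symbols in the table with its adaptors, 2 lower and 6 higher, beside 61.8% of all listed rows that were higher. The median log2 fold change of the 8 was 4.17, against 1.23 over all listed rows. SIGLEC6, also carried by mast cells, had 534 and 491 normalised reads in control libraries a and b, and 223 and 113 with ATRA, 3.05-fold lower. SIGLEC7, of natural killer cells and monocytes, had a single control read, in library b, and a ratio over pooled reads of 323 (exact 95% counting interval 57.6 to 12795). SIGLEC10 was 3.12-fold higher. SIGLEC16 had 5 control reads and a ratio of 371 (exact 95% counting interval 159 to 1143), SIGLEC11 had 3 and a ratio of 99.7 (33.8 to 486), and SIGLEC15 had 1 and a ratio of 116 (20.5 to 4626). Leaving out 1 library moved these values on the log2 scale: SIGLEC7 went from 8.21 to 7.21 without control a, and SIGLEC11 from 6.69 to 6.09 without ATRA b. SIGLEC15 went from 6.73 to 5.84 without ATRA a or 5.73 without control a, and SIGLEC16 from 8.47 to 7.76 or 9.96 without control a or b. Without control b, SIGLEC7 and SIGLEC15 had a control group at 0, so no fold could be given. SIGLEC11 and SIGLEC16 are near-identical over part of their sequence, and their reads cannot be assigned with certainty. SIGLEC8 and SIGLEC6 were thus lower while 5 other family members and PTPN6 were higher. Of 23 metallocarboxypeptidases and their inhibitor 3 were in the table: beside CPA3, the Golgi enzyme CPD was 2.69-fold higher and the lysosomal enzyme CPQ 9.02-fold. Their median log2 fold change was 1.43, against 1.23 over all listed rows. With control library b set aside, CPQ went from 3.17 to 3.96 on the log2 scale.

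**Figure D3:**
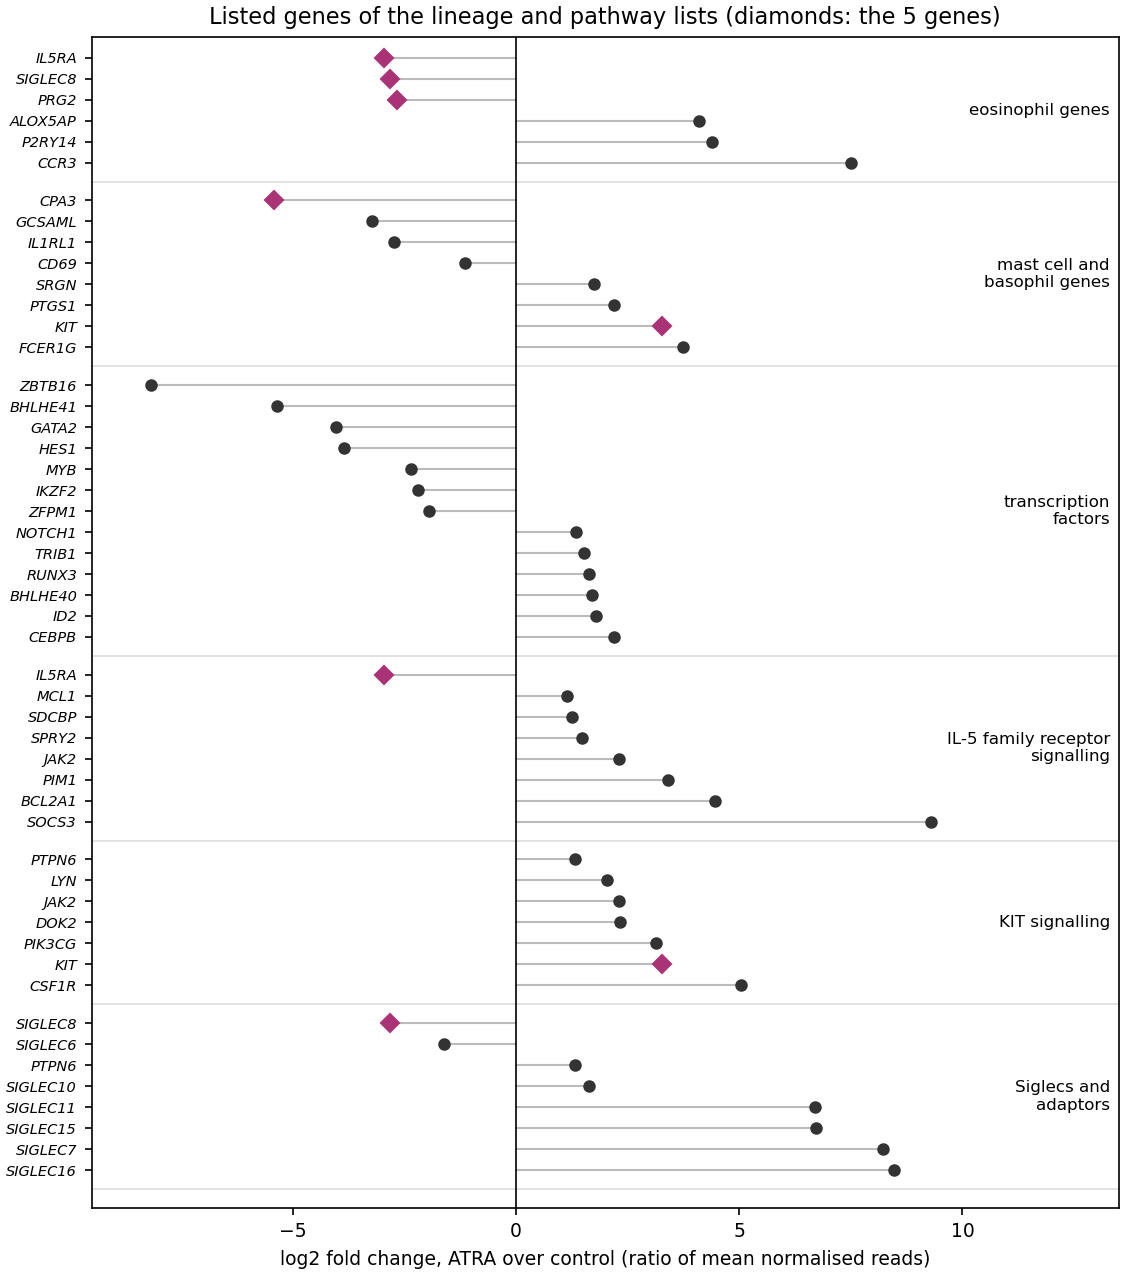
Log2 fold change of ATRA over control for the listed genes of 6 of the lineage and pathway lists, 1 gene per line, with the 5 genes as diamonds. The transcription factor list lies on both sides of 0, all KIT signalling genes lie to the right, and IL5RA is the only gene to the left on the IL-5 list. There, MCL1 at 1.13 would be at -0.02 with factors from the median of ratios over the listed rows.

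All 4 lower genes of the 5 were higher in ATRA library a than in b, by 3.58 times for PRG2, 2.998 for SIGLEC8 and 1.35 for IL5RA, with 5 reads against 0 for CPA3. Over all lists together, 20 of the 53 listed genes were lower, beside 38.2% of all listed rows. Of these 20 genes, 18 were higher in ATRA library a, the exceptions being MYB and PRSS57. The 20 include the 4 lower genes just named. Some of the 18 rest on few reads, as BHLHE41 with 4 against 0 and ZBTB16 with 3 against 0. Among all 630 lower rows of the table, 42.7% were higher in library a. The higher genes of the lists leaned the same way, with 23 of 33 higher in ATRA library a, as did 62.3% of all higher rows. The ATRA libraries of IL1RL1 lay 8.97 times apart and those of GATA2 1.99 times. In the controls 10 of the 20 genes were higher in library a, against 54.9% of all lower rows. The summed normalised reads of the 5 listed markers of the maturing neutrophil were 46275 in ATRA library a and 45121 in b, against 1533 and 1742 in the controls. Single markers went both ways between the ATRA libraries: ITGAM had 12336 in a and 10167 in b, CYBB had 22605 and 23858, and CEACAM8, also called CD66b, had 313 and 121.

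**Figure D4:**
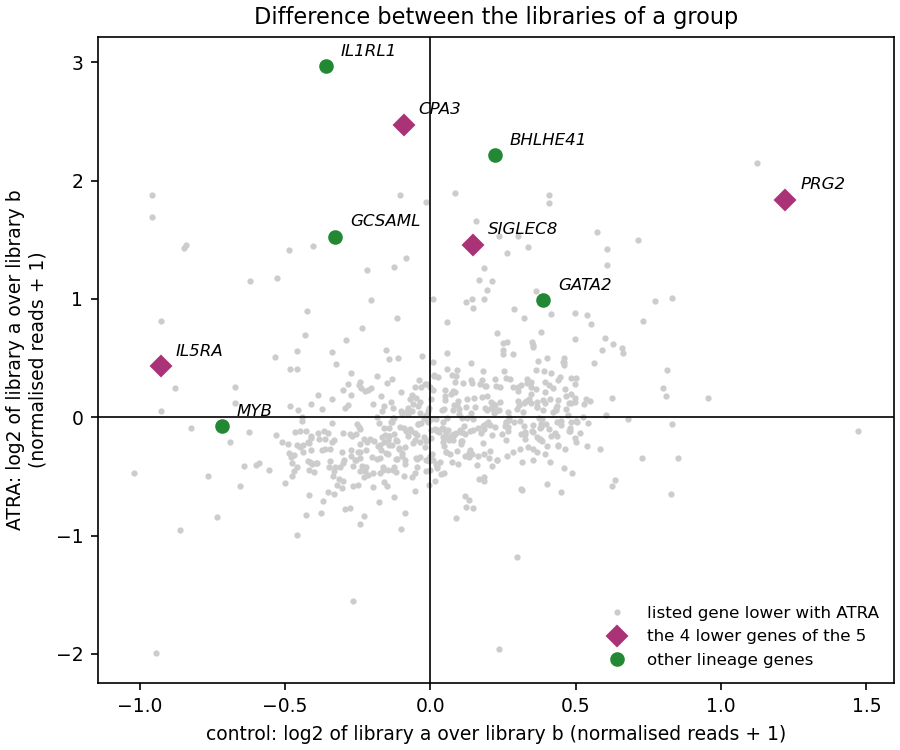
Log2 of library a over library b, from normalised reads plus 1, within the control group (horizontal axis) and within the ATRA group (vertical axis), for the 630 listed genes lower with ATRA (grey), 4 of the 5 genes (diamonds) and other lineage genes (green circles). PRG2, SIGLEC8, CPA3, IL5RA, IL1RL1, GCSAML, BHLHE41 and GATA2 lie above 0 on the vertical axis, and MYB lies just below it.

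The listed genes nearest to each of the 5 were found by the Euclidean distance between centred profiles of log2(normalised reads + 1) over the 4 libraries. For CPA3 they were BHLHE41 at a distance of 0.39, the DNA-binding protein gene ARID5B at 0.42 and the chemokine receptor gene CCR8 at 0.65. For SIGLEC8 they were MGLL, which encodes monoacylglycerol lipase, at 0.15, the kinesin gene KIF5C at 0.27 and SYDE2 at 0.34. For PRG2 the nearest were BATF3, a factor of dendritic cells, at 0.63, the death receptor gene TNFRSF21 at 0.70 and again MGLL at 0.78. For IL5RA they were WWC1 at 0.36, E2F5 at 0.48 and ADM2 at 0.50, and for KIT the reductase gene POR at 0.16, RASGRP3 at 0.20 and KCTD12 at 0.27. PRG2 had the most distant nearest gene of the 5. The likeness rests on 4 libraries in 2 groups, and genes with a similar difference between the groups therefore lie close.

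The cell type could be checked only in part, since the table is a selection. Of 9 promyelocyte markers 2, MYB and MYC, were in the table and both were lower with ATRA. All 5 listed markers of the maturing neutrophil, of 8 symbols, were higher, and the 2 listed monocyte or macrophage markers, of 5 symbols, were higher too. Their summed normalised reads were 57.4 and 25.7 in control libraries a and b, and 1107 and 947 in ATRA libraries a and b. Of 7 erythroid and 5 megakaryocyte markers 0 were in the table. Of 5 lymphoid markers 2 were listed, CD3E higher and NKG7 lower. Whether the cells behind these neutrophil and monocyte markers have a part in the values of KIT, FCER1G and CCR3 was not tested.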

How the data were processed

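RNA of 2 ATRA and 2 control samples was sequenced. The published methods, with the tool versions of the submitters' processing notes, state that the authors trimmed adapters (cutadapt), removed ribosomal reads (Bowtie), quantified reads with RSEM 1.2.7 on hg19 (GRCh37) and compared the groups with DESeq2 1.4.5. The deposited means are a signal made by the authors: read counts were scaled by a size factor for each library, then averaged within a group and over the 4 libraries. The deposited p-value columns and fold columns hold the authors' comparison. They were not used, except that the adjusted p was read to see which rows the table holds.

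The means contain 0 digits 0 among 73360 digits, so each 0 was taken to have been written as 1. For every mean, whole read counts of 2 libraries that give the printed text were sought. Exactly 1 solution was found for both groups in 1648 of 1648 rows, and it returned the mean over all libraries in 1648. The implied size factors were 1.10 and 1.00 with ATRA and 1.03 and 0.895 in controls. On simulated counts for 1648 genes the procedure returned all 4 counts in 100.0% of the genes. The simulated means were written by the same rule for the digit 0, and the search started from the size factors already found. That run therefore did not test the rule itself or the search for size factors.

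Fold changes are ratios of group means. Named genes were the 5 genes, the listed members of 8 gene lists, and the 3 nearest profiles per gene among rows with a mean of at least 10. The genes and lists were chosen with earlier results of these data known. Symbols were placed with GENCODE v44 on GRCh37, and promoters came from RefSeq on GRCh38.p14. Python 3.11.15, numpy 2.4.6, pandas 2.3.3 and scipy 1.17.1 were used. The replicates are separate samples by label only, and spreads may be technical. A planned look at protein sequences was not run. Alternatives were other library scales, pseudocounts, the printed means and leaving out each library.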

Additional observations from a re-analysis of the deposited data

How the results depend on the processing

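The 5 genes kept their direction under all alternatives run. Factors from the median of ratios over the listed rows moved the median log2 fold change of all rows by -1.15, and factors from total listed reads moved it by -0.44. With the former the log2 fold change was -4.09 for IL5RA, -3.99 for SIGLEC8 and 2.11 for KIT, which is near the common shift. With 10 added to the means it was -3.13 for CPA3 and 2.32 for KIT. Leaving out each library gave -5.47 to -4.42 for CPA3, -3.34 to -2.41 for IL5RA, -3.83 to -2.24 for SIGLEC8, -3.85 to -1.92 for PRG2 and 2.83 to 3.90 for KIT. The ATRA libraries of PRG2 lay 3.42 and 3.48 times apart with these 2 scales, and its control libraries 2.46 times with the former. The ATRA libraries of KIT, nearly equal, changed order with the former (0.988). Over all lists 20 genes were lower and 33 higher, also without each single library in turn. At least 4-fold changes were found in 16 of the lower and 21 of the higher genes. Among all listed rows 11.2% were at least 4-fold lower, and the share at least 4-fold higher was not counted. List counts under other scales were added after seeing the data and turned only MCL1. No paired analysis was possible because the recovered libraries carry no replicate number. The full depth is unknown, and CPA3, KIT and SIGLEC8 rest on few reads in 1 group.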

Other observations

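On the list of granule proteases, their inhibitors and proteoglycans 8 of 22 symbols were in the table, 6 lower, PRG2 among them, and 2 higher. Over all listed rows 38.2% were lower. The median log2 fold change of the 8 was -2.98, against 1.23 over all listed rows. That list was likewise chosen with earlier results known. Among the intracellular serpins, SERPINB10 was 259-fold lower, from 1719 ± 719 to 6.63 ± 0.916 normalised reads (SD, n = 2), and SERPINB8 was 2.74-fold lower. SERPINB2, the plasminogen activator inhibitor of macrophages, had 319 and 447 normalised reads in control libraries a and b and 30.9 and 10.97 with ATRA. The other listed proteoglycan, SRGN, was 3.36-fold higher. SERPINB1, an inhibitor of neutrophil elastase, went the other way and was 13.8-fold higher, from 875 ± 13.0 to 12073 ± 984 (SD, n = 2). CST7, the cystatin of cytotoxic and myeloid cells, was 15.7-fold lower, and the serine protease PRSS57 was 9.84-fold lower. On the log2 scale SERPINB2 went from -4.19 to -5.13 once ATRA library a was set aside, and PRSS57 from -3.30 to -4.03 once ATRA library b was. MPO, ELANE, PRTN3 and AZU1 were not in the table.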
